A study of Mus musculus with 11 samples.

Results

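Oxidative phosphorylation genes encode the protein complexes of the inner mitochondrial membrane that pass electrons from nutrients to oxygen and use the resulting proton gradient to make ATP. The genes were taken by symbol from the array annotation (Nduf a, b, c, s and v genes, Sdha to Sdhd, Uqcr genes, Cyc1, Cox4 to Cox8 genes and Atp5 genes), each represented by its brightest probe set among those annotated to 1 gene only. The rule found 91 of the 18194 genes on the array that could be named in this way. Of these, 83 encode subunits of complexes I to V, and 8 (Ndufaf1 to Ndufaf8) match by name but encode assembly factors of complex I, which help to build the complex without staying in it. The filter on low values kept 89 of the 91. The other 2, Ndufb4 (4.49 to 5.29 on the log2 scale over the 11 arrays) and Cox7b2 (4.00 to 4.72), lay too low to test. Each had 1 probe set annotated to it alone, so these values may not show how strongly the gene is expressed. The 10 probe sets that name a member together with other genes were not used.

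Skin was taken from mice given vehicle (3 arrays) or 1 mg/kg of ABBV-075, with collection at 6 h (4 arrays) or 24 h (4 arrays) after the dose, and 200 ng of total RNA was labelled for each Affymetrix 3' expression array. The design text counts 3 vehicle mice and 4 dosed mice and leaves unsaid whether the same 4 gave skin at both times, so the treated groups may not be independent of each other. ABBV-075, also called mivebresib, is an inhibitor of the BET family of bromodomain proteins, which read acetylated histones and promote transcription. The labels give no strain, sex, age, dosing route or collection time of the vehicle skin, and no genetic change in any group. Replicates are numbered as the labels number them: 1, 3 and 4 for vehicle, 1, 2, 3 and 5 at 6 h, and 1, 2, 3 and 4 at 24 h.

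Complex I takes electrons from NADH and complex II from succinate, complex III passes them on to cytochrome c, complex IV (cytochrome c oxidase) hands them to oxygen, and complex V (ATP synthase) makes ATP. Nuclear genes for these subunits tend to be expressed together, and several cytochrome c oxidase subunits have separate isoforms for heart and skeletal muscle. Whole skin holds keratinocytes, fibroblasts, fat cells, vessels, immune cells and, in the mouse, the thin muscle sheet under the dermis. In bulk samples of this kind, fewer cells of a type and less RNA per cell cannot be told apart.

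Values are log2 of the quantile-normalized intensity plus 16, so that a difference of 1 is about a doubling for a bright probe set, and a difference at low intensity is understated. Deposited intensities had a trimmed mean between 82.8 and 244 per array, and 12.9% to 16.6% of an array's values lay below 0. The intensity ratio of the 5' to the 3' actin control probe sets, which is low when RNA is shortened, ran from 0.0725 to 0.593. It lay under 0.3 on 3 arrays: 6 h replicate 5 at 0.0725, 24 h replicate 2 at 0.198 and 6 h replicate 3 at 0.284. The vehicle arrays lay at 0.484 to 0.593. The same ratio for the Gapdh control probe sets was low on 6 h replicate 5 (0.104). It was 0.804 on 24 h replicate 2 and 0.711 on 6 h replicate 3, within the vehicle range of 0.698 to 0.911, so the controls disagreed on these arrays. The skin label fitted basal keratinocyte Krt14, between 11.39 and 13.02 on every array. Ucp1, a marker of brown fat, was at or near the floor of 4 (4.00 to 4.82). The other 6 genes of the brown adipocyte list passed the filter, and their mean lay between 6.95 and 7.39 over the arrays.

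No oxidative phosphorylation gene differed between any pair of groups in limma's moderated test after Benjamini-Hochberg adjustment over 13710 genes. The count of adjusted p under 0.05 was 0 of 89 for 6 h against vehicle (0% of all genes tested), 0 of 89 for 24 h against vehicle (0% of all genes) and 0 of 89 for 24 h against 6 h (0% of all genes). The smallest adjusted p among the members was 0.23 at 6 h, 0.63 at 24 h and 0.26 for 24 h against 6 h. At an unadjusted p under 0.05, 3 members were higher and 3 lower at 6 h, where 8.02% and 8.05% of all genes were. At 24 h, 2 were higher and 0 lower than vehicle, against 3.16% and 4.47% of all genes. Between 24 h and 6 h, 4 were higher and 1 lower at 24 h, against 3.76% and 5.51%. The members' shares were thus under those of the whole array in all of these counts except the 4 that were higher at 24 h than at 6 h. Of the other forms of the test run, the one that called members used weights that lower the influence of divergent arrays. There limma called 4 of 89 members at 6 h (Cox7c higher and Ndufa4l2, Ndufs8 and Ndufaf6 lower), while it called 18.2% of all genes. It called 1 of 89, Cox7c, as lower at 24 h than at 6 h, while it called 3.09% of all genes there.

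The intervals show what the arrays could resolve. The 95% interval of the difference lay within a 2-fold change in either direction for 78 of the 89 members at 6 h (87.6%) and for 77 at 24 h (86.5%), against 62.9% and 68.6% of all genes. The median standard error of a member's difference was 0.20 on the log2 scale. A change of 2-fold or more at either time therefore lay outside the interval for most of these genes, and smaller changes remain within it. The highest log2 value of any probe set on any array was 14.04, and the brightest member, Uqcrb, reached 13.72, near enough that the array may compress its differences.

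The difference from vehicle at 24 h was small, and it was positive for most genes of complexes I, III, IV and V. In complex II it was positive for 1 of 4 genes, a result that depended on the probe set and on a single array. At 24 h, 73 of 89 members lay above vehicle with a median difference of 0.16, while 47.6% of all genes did, with a median of -0.02. With the array weights it was 66 of 89, with a median of 0.08. With cyclic loess scaling the count was 71 of 89. With the actin ratio as a covariate it was 64 of 89, and the median of all genes stayed at -0.02. In 2 other scalings it was lower still, and there the median of all genes moved too. With the intensities as deposited, 3 of 89 members lay above vehicle and the median of all genes shifted by -0.62, and with median scaling it was 42 of 89, with a shift of -0.23. Set against the median gene of the same fit, 74 members lay above it as analysed, 71 as deposited, 75 with median scaling and 76 with cyclic loess. The members' median lay above that of all genes by 0.18, 0.18, 0.22 and 0.19 in those 4 settings. Among the 2742 tested genes above the 80th percentile of level, which include 77 of the members, 53.6% lay above vehicle, with a median of 0.02, and 66 of the 77 members did, with a median of 0.16.

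One vehicle array carried much of this difference. Vehicle replicate 1 was the lowest of the 3 vehicle arrays for 65 of the 89 members, while it was the lowest for 38.5% of all genes. Without it, 63 members lay above vehicle at 24 h and the median difference was 0.07, so the size of the difference depends on that array. The mean over all members was 10.59 in vehicle replicate 1, 10.86 in vehicle replicate 3 and 10.80 in vehicle replicate 4, and the 24 h arrays lay between 10.84 and 10.96. Thus 24 h replicate 4 lay inside the vehicle range and the groups overlapped.

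**Figure D1:**
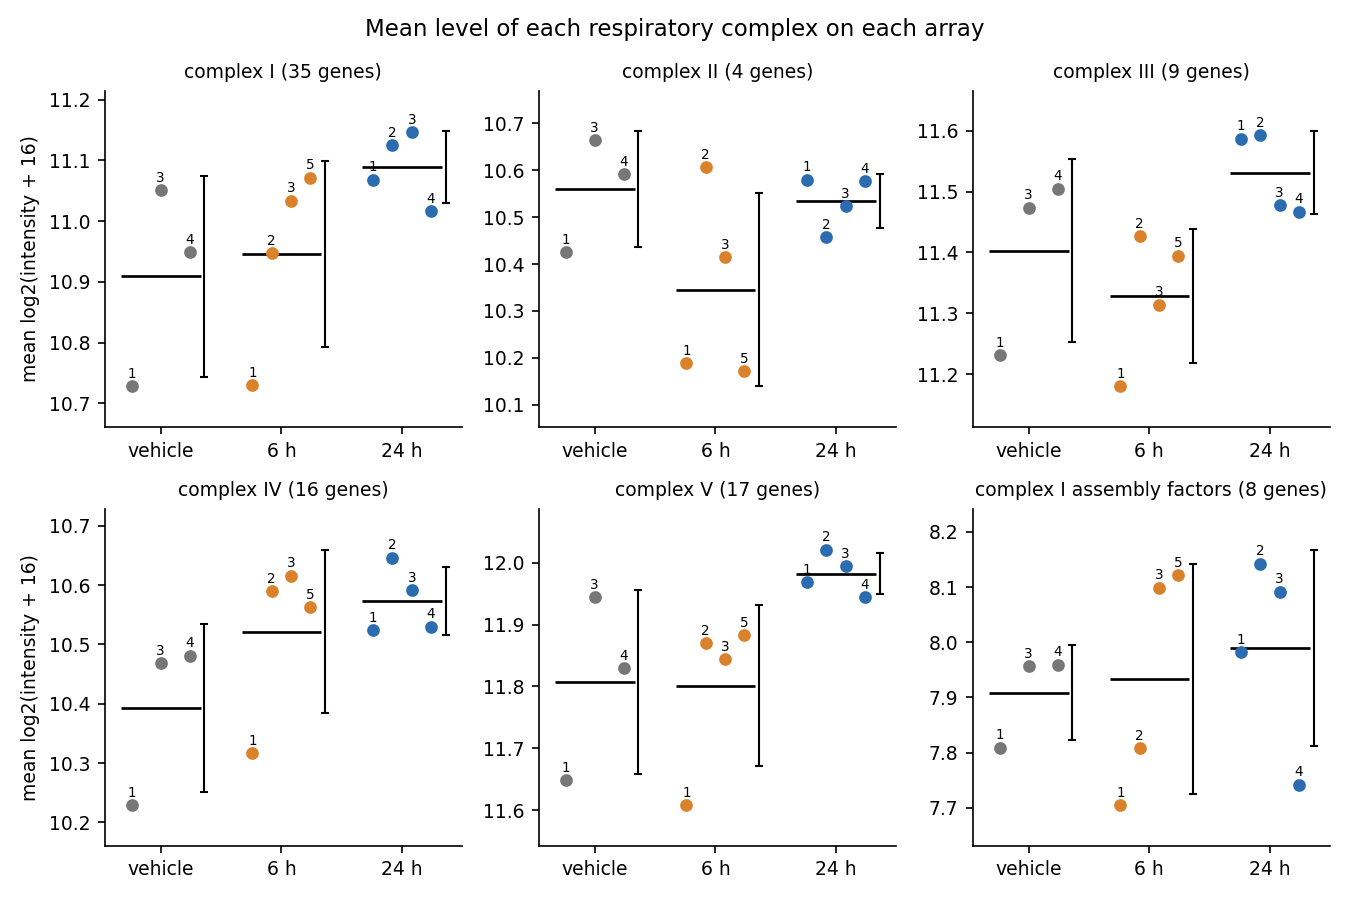
Mean log2(intensity + 16) of the tested genes of each complex (and of the complex I assembly factors) on each array, with replicate numbers beside the points, the group mean as a line and its SD as a bar. The lowest vehicle point in every panel is replicate 1, and the 24 h arrays of complexes III and V lie above all 6 h arrays, with complex V between 11.94 and 12.02 at 24 h and up to 11.88 at 6 h. On intensities scaled by the median instead, 23 of 89 members were higher at 24 h than at 6 h.

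At 6 h the genes showed no common shift. There, 51 of 89 members lay above vehicle, with a median difference of 0.03, and 50.4% of all genes did. The sign of this median depended on single arrays. It was -0.07 without vehicle replicate 1, -0.04 without 6 h replicate 5 and 0.11 without 6 h replicate 1. Between 24 h and 6 h, 73 of 89 members were higher at 24 h, with a median of 0.14, but only 50 without 6 h replicate 1, with a median of 0.05. With median scaling that last count was 23 of 89, and the median of all genes was -0.12 there. Because the comparisons share arrays, the 24 h value against vehicle and that against 6 h are not independent of each other.

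Complex I is the largest complex, with core subunits that carry the flavin and the iron-sulphur clusters and many small accessory subunits around them. Its 35 tested genes had a mean of 10.91 ± 0.17 in vehicle skin (SD, n = 3), 10.95 ± 0.15 at 6 h (n = 4) and 11.09 ± 0.06 at 24 h (n = 4). At 24 h 31 of the 35 lay above vehicle, with a median of 0.20, and 22 did at 6 h, with a median of 0.08. The 27 accessory subunits had a median of 0.20 at 24 h, ranging from -0.16 (Ndufa10) to 0.60 (Ndufa5), and 26 of them lay above vehicle. The 6 core subunits measured (Ndufs1, Ndufs3, Ndufs7, Ndufs8, Ndufv1 and Ndufv2) had a median of 0.18 at 24 h and of -0.06 at 6 h. Ndufa4 and its paralog Ndufa4l2 were kept apart from both groups, since the Ndufa4 protein is now placed in complex IV.

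Ndufs8 is the core subunit with a pair of iron-sulphur clusters on the path to ubiquinone, and it had the smallest p of complex I at 6 h. It read 11.05, 11.13 and 11.02 in vehicle replicates 1, 3 and 4. At 6 h it read 10.75, 10.80, 10.74 and 10.34 in replicates 1, 2, 3 and 5. The 24 h replicates 1 to 4 read 11.24, 11.17, 11.11 and 11.07. All 6 h arrays thus lay below all vehicle and all 24 h arrays, which overlapped each other. The difference at 6 h was -0.41 (SE 0.16, 95% interval -0.75 to -0.07, limma adjusted p = 0.25), and -0.30 without 6 h replicate 5. The difference of 24 h from 6 h was 0.49 (SE 0.14, limma adjusted p = 0.33). All 6 probe sets of the gene were lower at 6 h, by -0.14 to -0.41. Replicate 5, the lowest, is also the array with the lowest actin ratio, and with that ratio as a covariate the 6 h difference was -0.23; the part of RNA quality in it was not tested beyond that fit.

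Ndufa5, an accessory subunit of the arm that reaches into the matrix, had the largest 24 h difference of complex I. It read 10.65, 11.14 and 11.03 in vehicle replicates 1, 3 and 4. The 24 h replicates 1 to 4 read 11.37, 11.89, 11.61 and 11.26. The lowest 24 h value exceeded the highest vehicle value, and the difference was 0.60 (SE 0.32, limma adjusted p = 0.67). At 6 h it ranged from 10.54 in replicate 1 to 12.11 in replicate 5, a wider spread than that of the other groups.

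Ndufa13, also known as GRIM-19 and studied as a cell death regulator, had the smallest p of complex I at 24 h. In vehicle replicates 1, 3 and 4 it read 11.36, 11.64 and 11.77, and in 24 h replicates 1 to 4 it read 11.89, 12.10, 12.04 and 11.70. The groups overlapped, with a difference of 0.34 (SE 0.17, limma adjusted p = 0.66). Its 6 h arrays lay between 11.51 and 11.87. Ndufb11, Ndufa2 and Ndufb8, which are accessory subunits, were higher at 24 h without overlap, by 0.43, 0.36 and 0.34. Ndufb1, another small accessory subunit, lay 0.65 above vehicle at 6 h, where it ranged from 9.11 in replicate 2 to 11.09 in replicate 5, and without replicate 5 the difference was 0.27.

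Of the complex I assembly factors, 6 of 8 lay above vehicle at 24 h, with a median of 0.13, and 5 of 8 at 6 h, with a median of 0.06. Ndufaf3, needed early in assembly, read 7.96, 7.57 and 7.68 in vehicle replicates 1, 3 and 4. Its 6 h replicates 1, 2, 3 and 5 read 7.52, 7.26, 7.27 and 7.07, all below vehicle, for a difference of -0.45 (SE 0.17, limma adjusted p = 0.24). At 24 h it lay between 7.42 and 7.63 and overlapped vehicle. Ndufaf2, which binds a late assembly intermediate, was the one assembly factor above vehicle without overlap at 6 h, by 0.47. Ndufaf4, a partner of Ndufaf3, was that one at 24 h, by 0.35, with vehicle arrays at 7.92 to 8.37 and 24 h arrays at 8.38 to 8.98. Without 24 h replicate 2, its highest array, that difference was 0.20, and a second Ndufaf4 probe set gave 0.21. Ndufaf6 had the largest negative 24 h difference of the factors, at -0.40, with overlapping groups (limma adjusted p = 0.76).

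Complex II, succinate dehydrogenase, is the part of the chain that is also an enzyme of the TCA cycle. All 4 of its genes lay below vehicle at 6 h, by -0.01 (Sdha, the flavoprotein), -0.07 (Sdhb, the iron-sulphur protein), -0.39 (Sdhc) and -0.38 (Sdhd), the latter pair being its membrane anchors. The mean of the complex was 10.56 ± 0.12 in vehicle skin (SD, n = 3) and 10.35 ± 0.21 at 6 h (n = 4), and 6 h replicate 2 lay inside the vehicle range. Sdhd had the smallest p of the complex at 6 h. It read 10.21, 10.44 and 10.08 in vehicle replicates 1, 3 and 4, and 9.51, 10.12, 10.06 and 9.76 in 6 h replicates 1, 2, 3 and 5. The groups overlapped through replicate 2, with a limma adjusted p of 0.33. A second Sdhd probe set differed the other way at 6 h, by 0.13, so the probe sets of this gene disagreed. At 24 h 1 of the 4 genes lay above vehicle, and the median was -0.09, or 0.01 without 24 h replicate 2. The Sdhd probe set used differed by -0.16 at 24 h and the second by 0.23, while the Sdhc probe sets gave -0.13 and -0.33. The gene above vehicle, Sdhb, was also the one of smallest p. It read 11.12, 11.39 and 11.32 in vehicle replicates 1, 3 and 4 and 11.44, 11.65, 11.60 and 11.35 in 24 h replicates 1 to 4, a difference of 0.23 with overlapping groups (limma adjusted p = 0.75).

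Complex III has 9 genes on the array, and 8 of them lay above vehicle at 24 h, with a median of 0.13, against 4 of 9 at 6 h, with a median of -0.08. The exception at 24 h, Uqcrb, differed by -0.23, and by -0.25 at 6 h. Its second probe set differed the other way, by 0.38 and 0.42, so the probe sets of this gene disagreed. All 9 genes were higher at 24 h than at 6 h, with a median of 0.24, by 0.01 (Uqcrb) to 0.42 (Uqcrc1). The second Uqcrb probe set gave -0.04 there. Uqcrc2, one of the large core proteins, had the smallest p of the complex at both times. It read 10.94, 11.44 and 11.27 in vehicle replicates 1, 3 and 4, and 11.58, 11.72, 11.43 and 11.83 in 24 h replicates 1 to 4. Of the 24 h arrays, replicate 3 alone lay inside the vehicle range. The 24 h difference was 0.42 (SE 0.18, 95% interval 0.03 to 0.82, limma adjusted p = 0.63), and 0.29 without vehicle replicate 1. Its 6 h replicates 1, 2, 3 and 5 read 11.40, 11.67, 11.28 and 11.62, which overlapped both other groups. A second Uqcrc2 probe set gave 0.47 at 24 h. The other core genes, Uqcrc1, Uqcrfs1 (the Rieske iron-sulphur protein) and Cyc1 (cytochrome c1), differed from vehicle by 0.11, 0.02 and 0.21 at 24 h.

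Complex IV showed the largest spread between its genes, and most of that spread lay in its isoforms. Its 16 tested genes had a mean of 10.39 ± 0.14 in vehicle skin (SD, n = 3), 10.52 ± 0.14 at 6 h (n = 4) and 10.57 ± 0.06 at 24 h (n = 4). Of them, 11 lay above vehicle at 24 h, with a median of 0.10 and a range from -0.51 (Cox6b2) to 0.74 (Cox6a2). Among the bright ubiquitous subunits at 24 h, Cox5a differed by -0.07, Cox5b by 0.24, Cox6c by 0.09, Cox6b1 by 0.09 and Cox4i1, the ubiquitous form of the regulatory subunit, by 0.11.

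The 3 muscle isoforms, Cox6a2, Cox7a1 and Cox8b, had the largest 24 h differences of all members. Cox6a2 read 9.97, 10.95 and 11.02 in vehicle replicates 1, 3 and 4. It read 11.19, 11.38, 11.10 and 11.87 in 24 h replicates 1 to 4, all above vehicle, for a difference of 0.74 (SE 0.35, limma adjusted p = 0.65). At 6 h, replicates 1, 2, 3 and 5 read 10.58, 11.40, 10.56 and 9.996, around the vehicle mean. Cox7a1 read 9.20, 10.64 and 10.52 in the vehicle arrays and 10.65, 11.31, 10.89 and 10.29 at 24 h, for a difference of 0.66 (SE 0.45, limma adjusted p = 0.73) with overlap. Its 6 h replicates read 9.63, 10.62, 10.58 and 11.53, which spanned both groups. Cox8b read 10.82, 12.15 and 11.79 in the vehicle arrays and 12.27, 12.61, 12.43 and 11.76 at 24 h, for a difference of 0.68 (SE 0.38, limma adjusted p = 0.68), again with overlap. At 6 h it read 10.97, 11.86, 11.81 and 12.44, so its lowest 6 h array lay close to its lowest vehicle array.

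In each of these 3 genes vehicle replicate 1 was the lowest vehicle array by about 1 log2 unit, and without it the 24 h differences were 0.41 for Cox6a2, 0.20 for Cox7a1 and 0.31 for Cox8b. Skeletal muscle markers moved along with that array. Their list mean was 10.25 in vehicle replicate 1, 11.21 in replicate 3 and 11.28 in replicate 4, and 26 of 29 tested markers lay above vehicle at 24 h, with a median of 0.32. Without 24 h replicate 4 the gap of the list mean from vehicle went from 0.35 to 0.22. The 24 h group mean of the list, 11.27, lay between vehicle replicates 3 and 4. The gap thus depended on vehicle replicate 1 as well. The list mean ran from 10.25 to 11.28 in vehicle skin, 10.52 to 11.24 at 6 h and 10.91 to 11.68 at 24 h. Defining markers were far above the floor on every array, with Ckm, muscle creatine kinase, between 12.15 and 13.43 and Acta1, skeletal actin, between 12.41 and 13.77. The part of the amount of muscle in these differences was not tested. The isoforms did not follow the markers in the same way on every array. Cox6a2 was highest at 24 h in replicate 4, as the muscle list was, while Cox7a1 and Cox8b were lowest there.

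**Figure D2:**
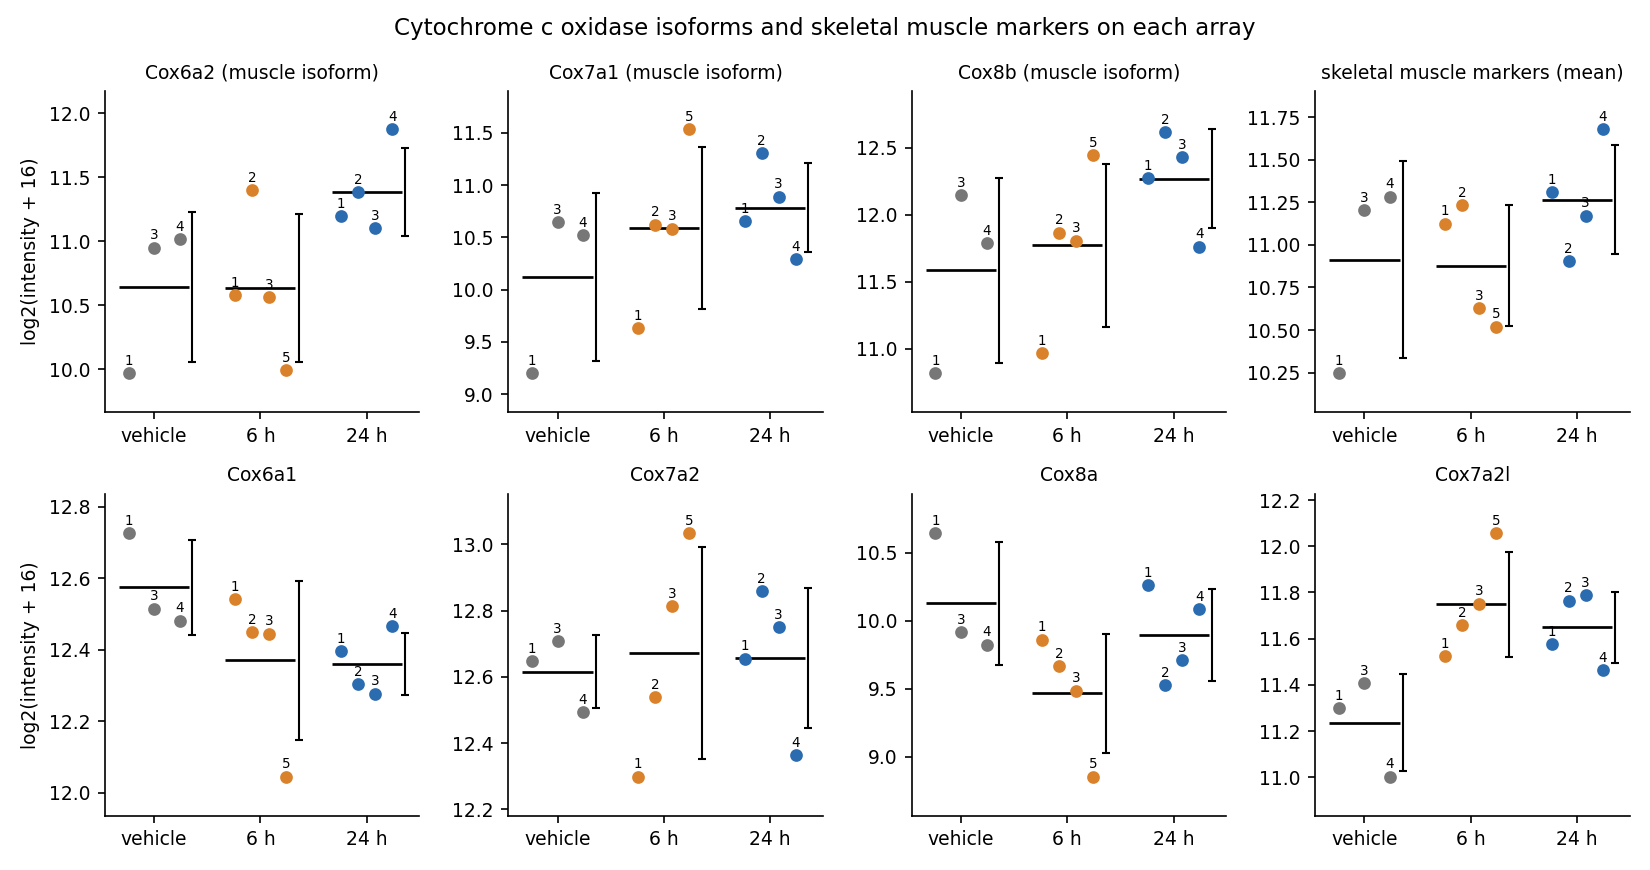
Log2(intensity + 16) on each array for 3 muscle isoforms of cytochrome c oxidase, the mean of 29 tested skeletal muscle markers, the ubiquitous partners Cox6a1, Cox7a2 and Cox8a, and Cox7a2l, with replicate numbers, group mean (line) and SD (bar). Vehicle replicate 1 is the lowest vehicle point in the 4 upper panels and the highest for Cox6a1 and Cox8a, and all Cox7a2l points of treated skin lie above the vehicle points.

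Their ubiquitous partners, which most other tissues use, did not share these differences. Cox6a1 read 12.73, 12.52 and 12.48 in vehicle replicates 1, 3 and 4, and 12.40, 12.30, 12.28 and 12.47 in 24 h replicates 1 to 4. The 24 h arrays lay just below vehicle without overlap, by -0.21 (SE 0.16, limma adjusted p = 0.75), and without vehicle replicate 1 by -0.14. Cox8a read 10.64, 9.91 and 9.82 in the vehicle arrays, and 9.86, 9.67, 9.49 and 8.85 in 6 h replicates 1, 2, 3 and 5. The 6 h difference was -0.66 (SE 0.29, limma adjusted p = 0.30) with overlap through replicate 1, -0.40 without vehicle replicate 1, and -0.18 with the actin ratio as a covariate. At 24 h Cox8a lay between 9.53 and 10.26 and its difference was -0.23. Cox7a2 lay within 0.06 of vehicle at both times, with arrays between 12.30 and 13.03.

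The promoters of the Cox7a and Cox8 isoform pairs are shown because the members of each pair differed in opposite directions or by unlike amounts. Each window runs from 250 bases before to 50 bases after a start of the gene, 5′ to 3′ on the strand of the gene, from RefSeq on build GRCm38.p6, and capitals mark matches to the motifs searched. The Cox7a2 window lies inside the annotated span of that gene (79755241 to 79771422), away from its outermost start on the minus strand, at 79771422.
Cox7a1 (chr7:30183921-30184220, plus strand): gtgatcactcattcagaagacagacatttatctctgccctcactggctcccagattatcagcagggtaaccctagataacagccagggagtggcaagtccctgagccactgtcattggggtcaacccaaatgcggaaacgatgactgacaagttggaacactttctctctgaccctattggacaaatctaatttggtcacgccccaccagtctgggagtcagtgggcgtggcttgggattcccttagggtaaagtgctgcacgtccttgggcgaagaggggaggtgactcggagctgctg
Cox7a2 (chr9:79759804-79760103, minus strand): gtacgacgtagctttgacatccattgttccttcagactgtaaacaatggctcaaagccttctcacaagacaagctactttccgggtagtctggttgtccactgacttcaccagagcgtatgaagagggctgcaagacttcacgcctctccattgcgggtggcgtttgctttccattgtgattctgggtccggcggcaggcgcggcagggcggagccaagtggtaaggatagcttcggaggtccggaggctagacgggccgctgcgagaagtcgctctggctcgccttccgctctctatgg
Cox8a (chr19:7217567-7217866, minus strand): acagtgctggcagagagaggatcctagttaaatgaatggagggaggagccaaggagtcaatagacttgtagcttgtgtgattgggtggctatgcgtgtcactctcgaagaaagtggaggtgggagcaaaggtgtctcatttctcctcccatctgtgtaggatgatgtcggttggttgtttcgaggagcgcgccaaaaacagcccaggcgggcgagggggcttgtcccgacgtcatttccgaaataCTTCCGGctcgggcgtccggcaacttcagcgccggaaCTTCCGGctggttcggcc
Cox8b (chr7:140900397-140900696, minus strand): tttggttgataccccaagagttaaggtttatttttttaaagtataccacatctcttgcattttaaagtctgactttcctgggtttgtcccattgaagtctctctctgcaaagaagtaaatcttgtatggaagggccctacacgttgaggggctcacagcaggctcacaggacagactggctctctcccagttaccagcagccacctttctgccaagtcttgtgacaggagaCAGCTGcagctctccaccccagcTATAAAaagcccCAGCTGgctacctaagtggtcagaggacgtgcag
In the Cox8a window both matches are the ETS family motif CCGGAAG, read on the opposite strand as CTTCCGG. The Cox8b window holds the TATA box motif TATAAA and 2 copies of the E-box CAGCTG, a form that muscle regulators bind. The windows of Cox7a1 and Cox7a2 held none of the motifs searched, which says only that these letters are not in them.

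Windows were used for 74 of the 91 genes. Those on chromosome 18, where Ndufa2 lies, were left out for the members and for all genes. The 6 motifs were searched on both strands, and none of them contains another. The NRF1 motif GCGCATGCG was in 12.2% of the members' promoters and in 2.61% of those of 17491 genes, and the YY1 motif AAGATGGC in 13.5% and 3.57%. For the ETS motif CCGGAAG, the site of GABPA, the shares were 25.7% and 12.9%, and for the ERR family motif AAGGTCA, the site of ESRRA, 10.8% and 4.73%. The E-box CAGCTG was in 8.11% of the members' windows and 17.4% of all, and TATAAA in 10.8% and 14.8%. NRF1, GABPA, YY1 and ESRRA are known regulators of mitochondrial genes, and a match is a description of letters, not of binding.

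Cox7a2l, also called SCAF1, is a relative of Cox7a that joins complexes III and IV into supercomplexes, and it had the smallest p of complex IV at both times. It read 11.30, 11.41 and 11.003 in vehicle replicates 1, 3 and 4. The 6 h replicates 1, 2, 3 and 5 read 11.52, 11.66, 11.75 and 12.06, and the 24 h replicates 1 to 4 read 11.58, 11.76, 11.79 and 11.46. All treated arrays lay above all vehicle arrays. The difference was 0.51 at 6 h (SE 0.18, 95% interval 0.12 to 0.91, limma adjusted p = 0.23) and 0.41 at 24 h (SE 0.18, 95% interval 0.02 to 0.81, limma adjusted p = 0.64). Its other 2 probe sets differed by 0.24 and 0.21 at 6 h and by 0.16 and 0.25 at 24 h, the same direction at a smaller size. With the intensities as deposited both differences turn negative, at -0.11 and -0.23, where the median of all genes was -0.68 and -0.62.

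Cox7c, a small subunit of complex IV, was the member furthest below its 6 h level at 24 h. Its probe set read 6.70, 6.96 and 6.90 in vehicle replicates 1, 3 and 4, and 6.98, 7.503, 7.30 and 7.63 in 6 h replicates 1, 2, 3 and 5, all above vehicle. It was back at 6.71, 6.53, 6.89 and 6.98 in 24 h replicates 1 to 4. The 6 h difference was 0.50 (SE 0.19, limma adjusted p = 0.25), and the 24 h arrays lay below the 6 h arrays by -0.57 (SE 0.18, limma adjusted p = 0.35). A second and dimmer Cox7c probe set differed by -0.05 at 6 h, so the probe sets disagreed. Both are dim for this array, and probe sets that name Cox7c together with other genes were not used here.

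The remaining isoforms lay at low intensity. Cox4i2, a form tied to lung and to low oxygen, read 4.57, 4.38 and 6.30 in vehicle replicates 1, 3 and 4, and 5.42 to 6.45 at 6 h, so its difference of 0.90 (limma adjusted p = 0.33) rests on a vehicle group whose own arrays differed by more. It was 0.54 without vehicle replicate 3 and 1.49 without vehicle replicate 4. Its 24 h arrays lay between 5.05 and 5.95. Cox6b2, the testis form, read 5.83 to 6.23 in vehicle skin and 5.33 to 5.74 at 24 h, below without overlap by -0.51 (limma adjusted p = 0.70). Cox8c, also a testis form, read 6.81 to 7.21 in vehicle skin and 7.26 to 7.88 at 24 h, above without overlap by 0.42 (limma adjusted p = 0.69). Ndufa4l2, an inducible paralog that lowers respiration in low oxygen, read 7.18 to 7.48 in vehicle skin, 5.55 to 7.41 at 6 h and 6.46 to 7.20 at 24 h. Its differences were -0.74 at 6 h and -0.45 at 24 h, with overlap at both times. The first was -0.40 without 6 h replicate 5, the array with the lowest actin ratio. Ndufa4 differed by -0.09 and -0.05.

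Complex V is the ATP synthase, with a catalytic F1 head, a ring of c subunits that turns as protons pass, and stalks that join them. Its 17 genes had a mean of 11.81 ± 0.15 in vehicle skin (SD, n = 3), 11.80 ± 0.13 at 6 h (n = 4) and 11.98 ± 0.03 at 24 h (n = 4). At 24 h 16 of 17 lay above vehicle, with a median of 0.15, and the exception, Atp5o of the stator stalk, differed by less than 0.001. The 5 head and central stalk genes (Atp5a1, Atp5b, Atp5c1, Atp5d and Atp5e) had a median of 0.11 at 24 h and -0.10 at 6 h. Atp5b, the catalytic beta subunit, ranged from 10.83 in 6 h replicate 5 to 12.38 in 24 h replicate 4.

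The c ring genes stood out within complex V in the comparison of 24 h with 6 h. Mouse has 3 genes, Atp5g1, Atp5g2 and Atp5g3, that encode the same mature c subunit behind different targeting peptides. Atp5g2 read 11.13, 11.02 and 10.77 in vehicle replicates 1, 3 and 4, and 10.66, 10.87, 10.68 and 10.35 in 6 h replicates 1, 2, 3 and 5. The 24 h replicates 1 to 4 read 11.32, 11.06, 11.24 and 11.44, all above the 6 h arrays. The difference of 24 h from 6 h was 0.62 (SE 0.16, 95% interval 0.26 to 0.98, limma adjusted p = 0.26). Atp5g1 read 9.75, 10.35, 10.18 and 9.71 in the 6 h arrays and 10.52, 10.44, 10.59 and 10.92 at 24 h, also without overlap, for a difference of 0.62 (SE 0.20, limma adjusted p = 0.38). Its vehicle arrays read 9.86, 10.45 and 10.12, and the 24 h difference from vehicle was 0.48 (limma adjusted p = 0.65), or 0.34 without vehicle replicate 1. Atp5g3 differed between 24 h and 6 h by 0.06, with every array between 12.21 and 12.68. The dimmer Atp5g2 probe sets gave -0.05 and -0.12 for 24 h against 6 h, and so did not share the difference of the bright one.

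The Atp5g2 promoter is shown because this gene had the smallest unadjusted p of any member between 24 h and 6 h, and its capitals mark the NRF1 motif GCGCATGCG, which matches once on each strand at overlapping positions.
Atp5g2 (chr15:102670998-102671297, minus strand): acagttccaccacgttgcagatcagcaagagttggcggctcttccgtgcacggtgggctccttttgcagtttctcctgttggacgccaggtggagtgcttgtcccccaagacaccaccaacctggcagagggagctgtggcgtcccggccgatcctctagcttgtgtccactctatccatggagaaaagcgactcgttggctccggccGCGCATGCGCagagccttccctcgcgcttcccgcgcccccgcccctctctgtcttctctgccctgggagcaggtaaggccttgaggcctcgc
Windows were not searched for anything beyond the 6 motifs, and the binding of NRF1 in skin was not measured.

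**Figure D3:**
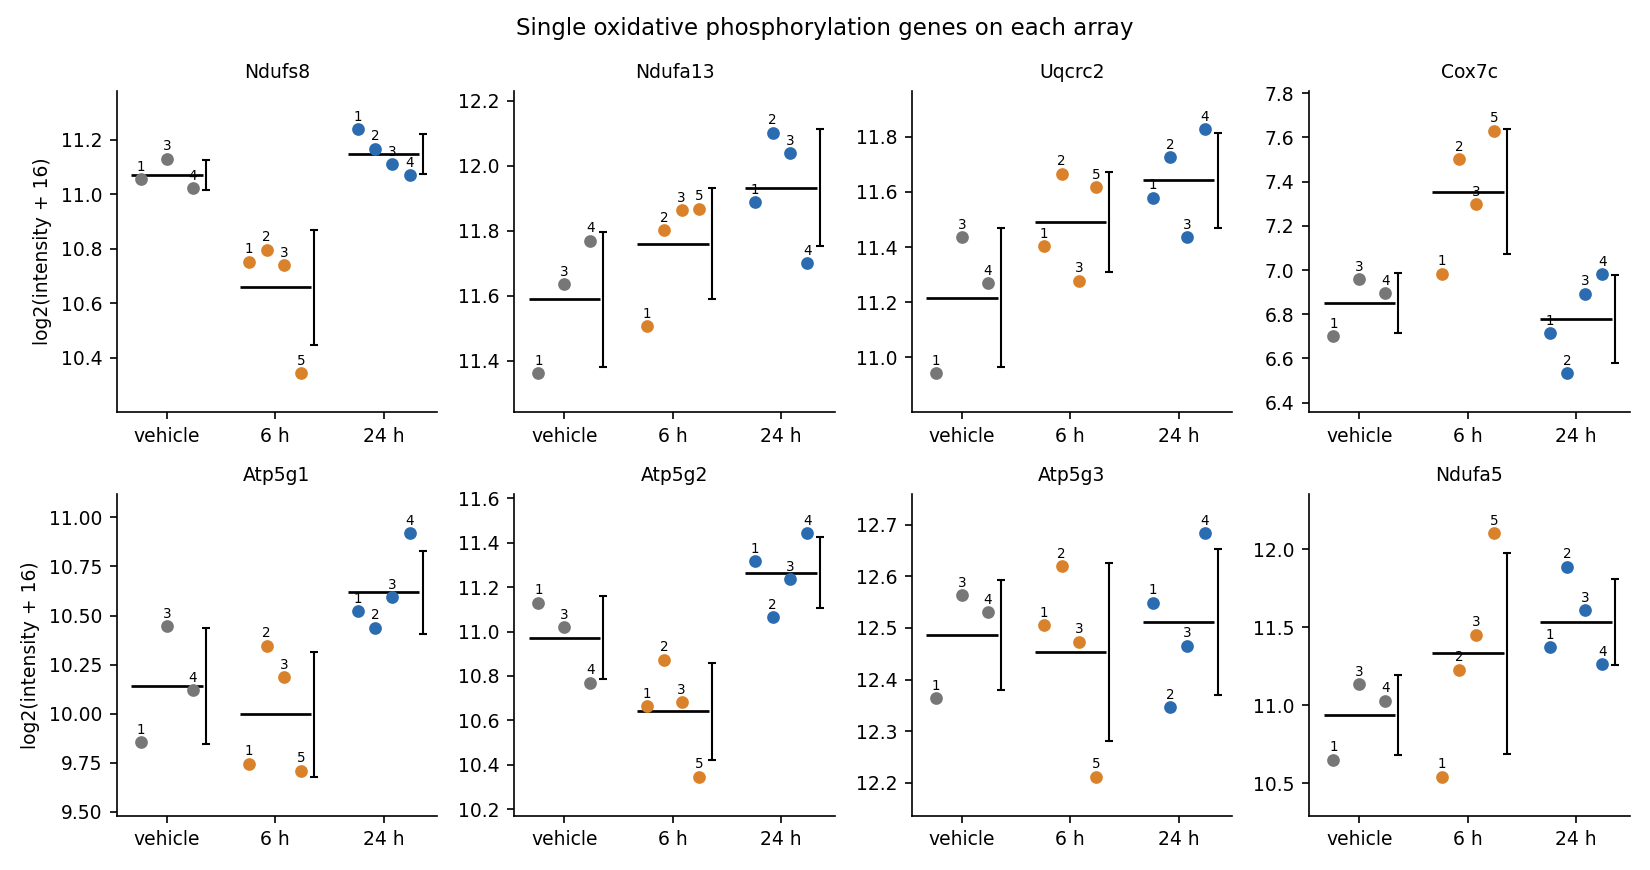
Log2(intensity + 16) on each array for 8 single genes of complexes I, III, IV and V, with replicate numbers, group mean (line) and SD (bar). Ndufs8 and Atp5g2 are lowest at 6 h, with all 24 h arrays above all 6 h arrays, Cox7c is highest at 6 h, and Atp5g3 stays between 12.21 and 12.68 on every array.

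Counts of members whose groups did not overlap put these genes in context. At 6 h, 3 of 89 lay wholly above vehicle (3.37%; Cox7a2l, Cox7c and Ndufaf2) and 2 wholly below (2.25%; Ndufs8 and Ndufaf3), against 9.77% and 8.77% of all genes. At 24 h, 8 of 89 lay wholly above vehicle (8.99%), against 5.09% of all genes: Ndufb11, Ndufa2, Ndufb8, Ndufa5, Cox7a2l, Cox6a2, Cox8c and Ndufaf4. Another 2 lay wholly below (2.25%; Cox6a1 and Cox6b2), against 6.02%. Between 24 h and 6 h, 4 lay wholly above (4.49%; Ndufa3, Ndufs8, Atp5g2 and Atp5g1), against 1.92%, and 1 wholly below (1.12%; Cox7c), against 3.54%. Few oxidative phosphorylation genes thus separated the groups at 6 h, fewer as a share than on the whole array.

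**Figure D4:**
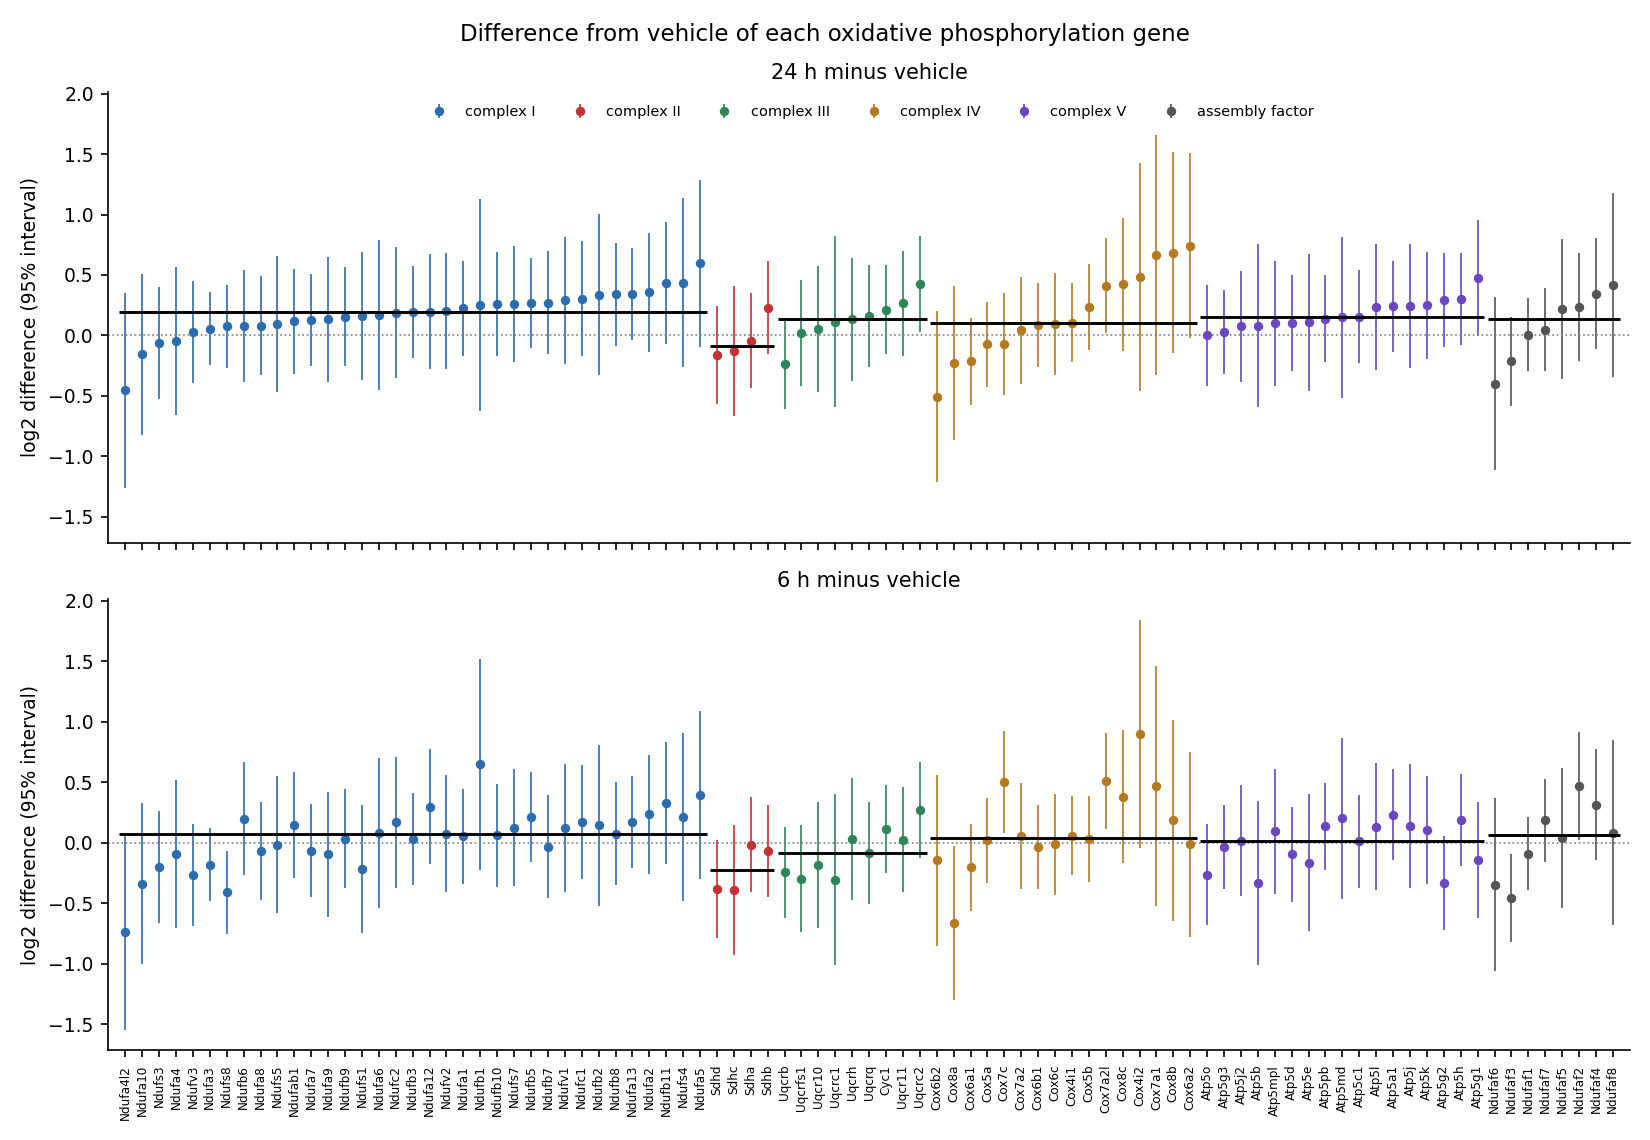
Difference from vehicle (log2) with its 95% interval from limma for each of 89 genes, grouped and coloured by complex and ordered within each complex by the 24 h difference, at 24 h (upper panel) and 6 h (lower panel), with the median of each class as a black line. Most 24 h points lie slightly above 0, with intervals that mostly include it, but on intensities as deposited only 3 of 89 lie above 0.

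Within the treated groups, the genes split into 2 sets whose values differed in opposite ways from array to array. In 6 h replicate 5, 55 members lay above the mean of the other 6 h arrays and 34 below it, from -1.37 (Cox6b2) to 1.504 (Ndufb1). Of the 55, 47 also lay above the other 24 h arrays in 24 h replicate 2, and 49 lay below them in 24 h replicate 4. Of the 34, 29 lay below in 24 h replicate 2 and 29 above in 24 h replicate 4. The deviations of a gene within a group sum to 0, so the opposite counts in 24 h replicates 2 and 4 are partly fixed by each other. The same arrays deviated in a similar way over all 13710 genes tested. There 6 h replicate 5 correlated at 0.385 with 24 h replicate 2 and at -0.535 with 24 h replicate 4. The array pattern was thus not particular to the oxidative phosphorylation genes. The first set held 21 of the 27 accessory subunits of complex I, all 5 small subunits of complex III (Uqcrb, Uqcrh, Uqcrq, Uqcr10 and Uqcr11) and 8 of the 9 ATP synthase subunits outside the head and ring. It held 1 of the 6 core subunits of complex I (Ndufv2), 1 of the 4 of complex III (Uqcrc2) and 2 of the 5 head and stalk subunits of ATP synthase (Atp5c1 and Atp5e). None of the 3 c ring genes was in it. These roles were assigned after the values were seen. For example, Atp5l, a small membrane subunit, read 12.85 in 6 h replicate 5, 12.71 in 24 h replicate 2 and 12.09 in 24 h replicate 4, while Uqcrc1 read 9.37, 10.10 and 11.03 on the same arrays. The arrays 6 h replicate 5 and 24 h replicate 2 are those with the lowest actin ratios (0.0725 and 0.198), while 24 h replicate 4 had a ratio of 0.423. Their Gapdh ratios were 0.104, 0.804 and 0.945 in the same order, so by Gapdh 6 h replicate 5 alone was low. The array 24 h replicate 4 also had the lowest adipocyte, fibroblast and macrophage list means of all 11 arrays and the highest basal keratinocyte and skeletal muscle means. With the actin ratio as a covariate, the members' median was -0.06 at 6 h and 0.13 at 24 h. Leaving out the 3 arrays with an actin ratio under 0.3 gave -0.08 and 0.14, and 0 members were called in either fit. The parts of RNA quality and of cell makeup in the split were not tested.

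**Figure D5:**
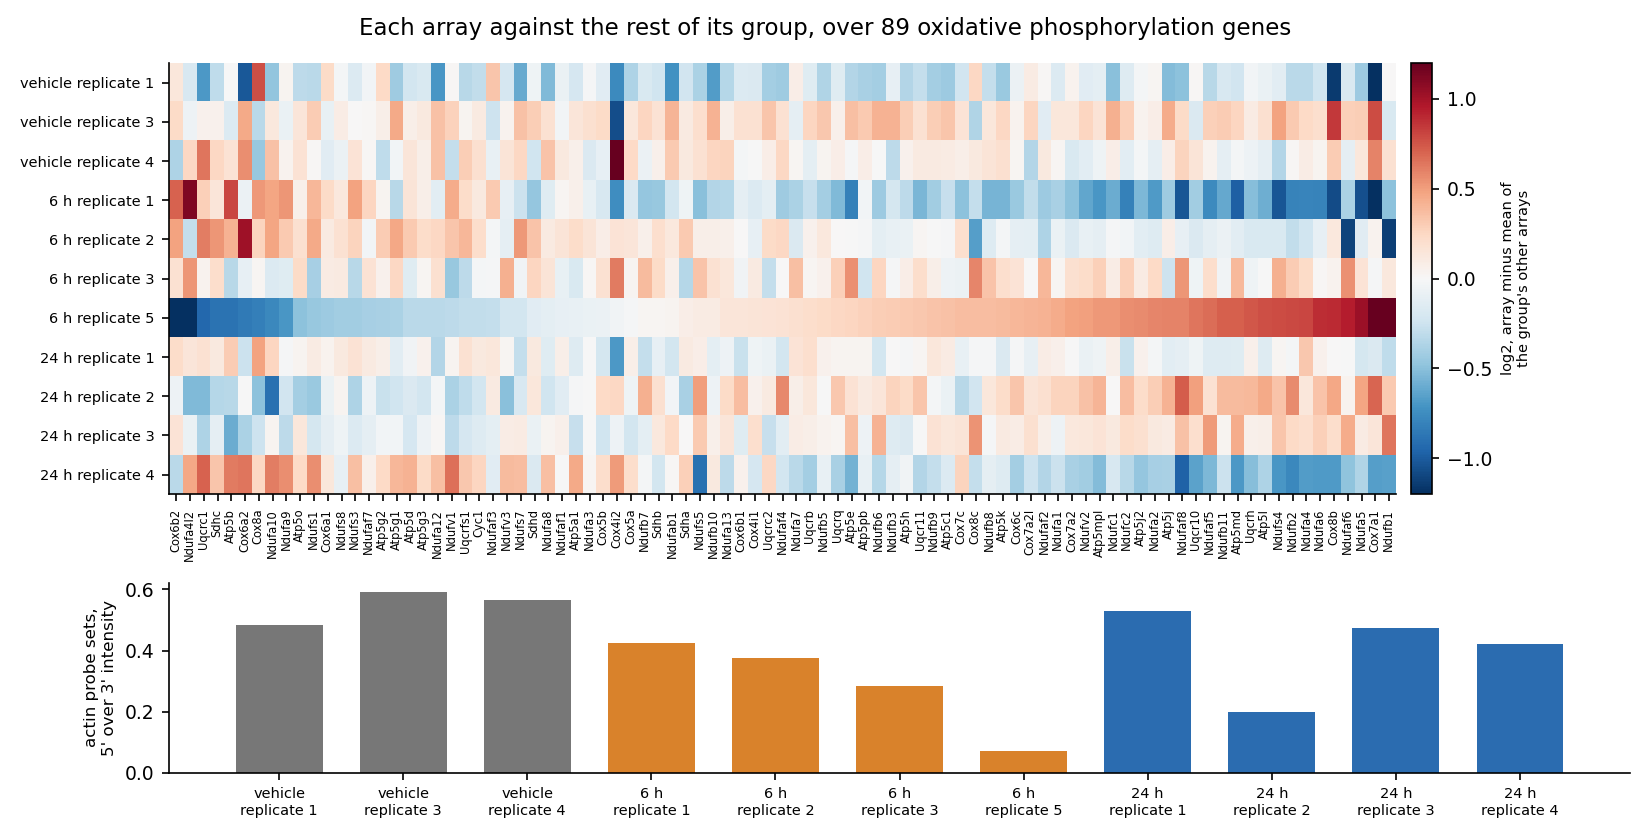
Upper panel, each of 89 genes (columns, ordered by 6 h replicate 5) on each array (rows) as the log2 difference from the mean of the group's other arrays, with colours clipped at 1.2 in either direction; lower panel, ratio of 5' to 3' actin intensity on each array, coloured by group. The rows of 6 h replicate 5 and 24 h replicate 2 share their pattern, and 24 h replicate 4 shows the opposite one, which the centring within a group partly fixes, with actin ratios of 0.0725, 0.198 and 0.423. Over all genes tested, 6 h replicate 5 also correlated at 0.385 with 24 h replicate 2 and at -0.535 with 24 h replicate 4.

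Where a gene had more than 1 probe set, these did not always point the same way. Of 49 members with at least 2 probe sets above the filter, all probe sets shared a sign in 26 at 6 h, 37 at 24 h and 31 for 24 h against 6 h. At 6 h the difference between a gene's highest and lowest probe set had a median of 0.27 and reached 0.92, in Atp5a1, the alpha subunit of the F1 head. At 24 h the median was 0.16. Ndufs8 and Cox7a2l, described above, were among the genes whose probe sets shared a sign at 6 h.

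Other mitochondrial and energy genes were read from lists of their pathways, and 0 of the genes in each list passed limma's adjusted test in either direction and in any comparison. At an unadjusted p under 0.05, the genes of these lists that differed at 24 h were Mrpl44 and Mrpl52, both higher, by 0.45 and 0.48. They are 2 of 76 mitochondrial ribosomal protein genes tested, and 3.16% of all genes were higher at that threshold. Mitochondrial ribosomal proteins, which translate the subunits encoded by mitochondrial DNA, lay above vehicle at 24 h in 49 of 76, with a median of 0.07, and in 38 of 76 at 6 h. A mixed list of mitochondrial carriers, Vdac channels, cytochrome c and other mitochondrial proteins did so at 24 h in 9 of 12, with a median of 0.21. Cytochrome c itself (Cycs) differed by 0.45 at 6 h and 0.54 at 24 h. Fatty acid oxidation genes did so in 12 of 17 at 24 h (median 0.16) and 6 of 17 at 6 h (median -0.08). TCA cycle genes did so in 10 of 16 (median 0.03) and 6 of 16 (median -0.10). Assembly factors of complexes II to V had medians of 0.01 at 24 h, with 17 of 28 above vehicle, and -0.07 at 6 h. Glycolysis genes, which are not mitochondrial, had a median of 0.28 at 24 h, with 12 of 15 above vehicle, and the muscle enzymes Pfkm, Pgam2 and Eno3 differed by 0.78, 0.59 and 0.47. Without 24 h replicate 4 the mean gap from vehicle went from 0.23 to 0.07 for glycolysis and from 0.21 to 0.12 for the mixed list with the carriers. Vehicle replicate 1 was the lowest vehicle array for each list. The glycolysis mean was 10.18 there, 10.62 and 10.72 in vehicle replicates 3 and 4, and 10.74 in the 24 h group. For the mixed list these values were 10.54, 10.98, 11.003 and 11.05. Both gaps thus depended on vehicle replicate 1 as well. Known regulators of mitochondrial biogenesis had a median of 0.03 at 24 h and 0.04 at 6 h over 15 genes. Among them Ppargc1a, the coactivator PGC-1alpha, differed by -0.25 at 6 h and 0.26 at 24 h, and Tfam, which packages mitochondrial DNA, by 0.38 and 0.19 (limma adjusted p between 0.32 and 0.79).

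Markers of other skin cells differed between the same groups, also without passing limma's adjusted test. At an unadjusted p under 0.05, 1 of 11 adipocyte, 2 of 10 fibroblast, 1 of 8 macrophage and 3 of 8 endothelial markers were lower at 24 h. So was 1 of 9 suprabasal keratinocyte markers, and 4.47% of all genes were lower. In the other direction, 0 of 9 basal keratinocyte and 1 of 4 sebaceous gland markers were higher, against 3.16% of all genes. At 24 h 0 of 11 adipocyte markers lay above vehicle (median -0.68), 0 of 10 fibroblast markers (median -0.63), 0 of 8 macrophage markers (median -0.90) and 1 of 8 endothelial markers (median -0.68). All 9 basal keratinocyte markers lay above vehicle (median 0.56). The suprabasal keratinocyte list did not share this, with 5 of 9 above vehicle (median 0.01). Of the hair shaft and matrix markers 2 of 8 lay above it (median -0.49), and of the sebaceous gland markers 2 of 4 (median 0.04). At 6 h 0 of 11 adipocyte (median -0.98), 0 of 10 fibroblast (-0.38), 0 of 8 macrophage (-0.80) and 0 of 8 endothelial markers (-0.70) did. All 9 basal keratinocyte markers again lay above it (0.57), as did 6 of 9 suprabasal keratinocyte (0.12), 0 of 8 hair (-1.07) and 3 of 4 sebaceous gland markers (0.17). The 6 h means of the fibroblast (11.16 to 11.53), adipocyte (9.45 to 10.30) and endothelial lists (6.67 to 7.04) lay below vehicle without overlap. The macrophage and basal keratinocyte means overlapped vehicle. The fibroblast list mean ran from 11.90 to 11.96 in vehicle skin and from 9.90 to 11.89 at 24 h, the adipocyte mean from 10.51 to 11.01 and from 8.54 to 10.90, and the basal keratinocyte mean from 9.54 to 10.21 and from 9.91 to 11.89. In the macrophage, fibroblast, adipocyte and basal keratinocyte lists 24 h replicate 4 stood apart. Its macrophage mean was 7.72, against 10.16 to 10.48 on the other 24 h arrays, its fibroblast mean 9.90, against 11.37 to 11.89, its adipocyte mean 8.54, against 9.96 to 10.90, and its basal keratinocyte mean 11.89, against 9.91 to 10.27. Without it the gap of the list mean from vehicle went from -0.93 to -0.28 for macrophages, from -0.71 to -0.27 for fibroblasts, from -0.83 to -0.35 for adipocytes and from 0.60 to 0.14 for basal keratinocytes. The median of the oxidative phosphorylation genes was 0.21 without it, with 66 of 89 above vehicle. The part of these shifts in the oxidative phosphorylation values was not tested.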

How the data were processed

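Mouse skin was measured on 11 arrays, with 3 in the vehicle group and 4 in each ABBV-075 group. The authors deposited 1 intensity per probe set and array on a linear scale. Total RNA was amplified from its 3' end, per the labels' protocols. Which software, background correction and scaling made these values is not given in the sources used here. Of 45101 probe sets, 34958 had 1 gene in the platform annotation, 932 several and 9211 none named here. 34754 matched the reference gene table, which changed 0 symbols.

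Intensities below 0 were set to 0, quantile-normalized between arrays and taken as log2(intensity + 16). For each gene the brightest probe set over all arrays was kept. Genes above the array's 40th percentile on at least 3 arrays were tested (13710 of 18194). limma 3.58.1 in R 4.3.3 fitted a mean per group over the 11 arrays, with moderated two-sided tests, Benjamini-Hochberg adjustment over all genes tested, and a threshold of 0.05. The number of arrays limits the precision. The fitting was tested on simulated data.

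The members, the pathway and marker lists and the rules were chosen with earlier results of these data known. Values per array are given for isoform families and for the gene of smallest p in each class at each time against vehicle, and the 3 largest differences each way are named. Other genes were named after their values were seen. The roles within complexes (core, accessory, head, ring) and the actin fits were also set after seeing the data.

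No more than 3 probe sets held identical values in any pair of arrays. The deviations of same-numbered vehicle and 24 h arrays correlated at 0.246, 0.135 and 0.205. Those of vehicle and 24 h arrays with unlike numbers ran from -0.35 to 0.211. For same-numbered vehicle and 6 h arrays the correlations were -0.12 and -0.0738, and for 24 h and 6 h they were -0.345, 0.169 and -0.064. These values do not settle whether the numbers mark pairs. The replicate number was tried as a block in a separate fit.

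Alternatives changed the scaling, pseudocount, filter, probe set rule, variance trend, array weights, groups fitted and replicates included. Promoter windows were read from RefSeq tables. No reference genome was used.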

Additional observations from a re-analysis of the deposited data

Results flagged for a closer look

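In 64 groups of arrays tested for a value standing apart, 3 were flagged, and chance flags about 1 in 20 groups. Ndufs8, a core subunit of complex I, read 10.34 in 6 h replicate 5, while the other 6 h arrays lay between 10.74 and 10.80. Ndufaf4, an assembly factor of complex I, read 8.985 in 24 h replicate 2, while the other 24 h arrays lay between 8.38 and 8.46. The mean of the 17 complex V genes was 11.61 in 6 h replicate 1, while the other 6 h arrays lay between 11.84 and 11.88.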

How the results depend on the processing

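Across 28 settings no member passed limma's adjusted test except with array weights, which called 4 at 6 h (18.2% of all genes were called there) and 1 between 24 h and 6 h, with 27 members above vehicle at 6 h. With intensities as deposited, members above vehicle numbered 1 at 6 h (median -0.54) and 3 at 24 h (median -0.447). With median scaling, 42 lay above vehicle at 24 h, and 23 were higher at 24 h than at 6 h (median -0.10). Relative to the median gene, the members' median lay between 0.10 and 0.26 at 24 h, -0.08 and 0.23 at 6 h, and 0.02 and 0.22 for 24 h against 6 h. The replicate block changed no call, with 72 members above vehicle at 24 h (median 0.14) and 36 at 6 h (median -0.035). Leaving out 1 array at a time, 24 h medians fell to 0.07 without vehicle replicate 1, and those of 24 h against 6 h to 0.05 without 6 h replicate 1. Of 78 values of single named genes, 27 changed sign as deposited, 13 with median scaling, 17 with the actin covariate and 12 with the block, and none of these had passed the test. The causes were not tested. Dim probe sets near the floor of 4 understate differences.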
